A study of Mus musculus with 4 samples.

Results

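The 8 genes described here make prostaglandins or carry their receptors for prostaglandin E2. They were chosen by name (Ptgs1, Ptgs2, Ptges, Ptgis, Ptgds, Hpgds, Ptger2 and Ptger4) from the 31054 features of the gene table, without use of any measured value, and all 8 were found. Prostaglandins are short-lived lipid signals. The cyclooxygenases turn arachidonic acid released from membranes into prostaglandin H2, and a terminal synthase then makes prostaglandin E2, prostacyclin or prostaglandin D2 from it, each of which acts on its own G protein-coupled receptors nearby. In adipose tissue they are known to be made by stromal, mesothelial, endothelial and immune cells and to act on adipocyte progenitors, blood vessels and leukocytes.

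Single-cell transcriptomes were measured in the stromal vascular fraction of gonadal adipose tissue (gWAT), the cells left after adipocytes are removed from a Liberase digest. All mice were 18-month-old p16-CreERT2/R26-LSL-tdTomato males given tamoxifen, in which cells with an active p16 (Cdkn2a) promoter turn on the red protein tdTomato permanently, so that Tom+ marks cells that had p16 promoter activity when tamoxifen was given. Cells were sorted for CD45, a leukocyte surface protein, and for tdTomato into 4 groups, Tom+ and Tom- cells without CD45 (labelled CD45-) and the same with it (CD45+). A single library of the 10x Genomics 3′ kit was made per group, with no replicate, and how many animals went into it is not given in the sources used here. No test between groups was therefore possible, and each comparison is between libraries.

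The matrices held 3429 to 11255 barcodes, of which 3886 and 3674 cells were kept in the libraries labelled CD45- (Tom+ first, then Tom-) and 1927 and 4391 in those labelled CD45+ (Tom+, then Tom-). Values of all 4 libraries are given in that order throughout. A kept cell held a median of 18331 to 19502 UMIs (unique molecular identifiers, each 1 captured transcript). tdTomato followed its label, at 713 and 715 CPM (counts per 1e+06, the gene's share of the UMI total in the same cells) in the Tom+ and 15.99 and 18.8 CPM in the Tom- libraries, whereas Cdkn2a lay between 6.81 and 7.64 CPM in all 4. Ptprc, which encodes CD45, was at 217, 158, 223 and 188 CPM and did not separate the CD45 labels, and both CD45- libraries held many leukocytes. The 2 Tom- libraries shared 4394 barcodes and other pairs 26 to 1134, but among kept cells no pair shared more than 14. Clustering gave 29 clusters, named from marker genes into 13 classes. 7 clusters kept a number, 6 of which had at least 30 cells in a library, so that 19 classes and clusters are described. The names end in -like because no protein was measured and were rebuilt here, so a difference from the study's own cell types may come from the naming.

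Of the 8 genes, 4 lie on mouse chromosome 2 in mm10 (GRCm38). Ptgs1 spans chr2:36230426-36252272 on the plus strand, Ptges chr2:30889471-30929863, Ptgis chr2:167191805-167240604 and Ptgds chr2:25466709-25470046, the last 3 on the minus strand. Ptgs2 is at chr1:150100031-150108227 (plus), Hpgds at chr6:65117293-65144908 (minus), Ptger2 at chr14:44988195-45003820 (plus) and Ptger4 at chr15:5206661-5244187 (minus). Counts are over whole genes, and only Ptges overlaps another annotated gene on its own strand (Gm13400, which is no feature of the table). Opposite-strand genes overlap 5 others (Ptgs1, Ptgis, Hpgds, Ptger2 and Ptger4), and strand use in counting was not given in the sources used here. The 250 bases before the annotated start are shown for both cyclooxygenases, which differed in the order of their classes, and for Ptger4, the receptor with most UMIs. They come from the RefSeq promoter table for GRCm38.p6, which held 7 of the 8 genes and not Ptgis. Each runs 5′ to 3′ in the direction of the gene, and capitals mark letters of a motif searched on both strands. The Ptgs1 stretch is chr2:36230176-36230425 (plus strand), that of Ptgs2 chr1:150099781-150100030 (plus) and that of Ptger4 chr15:5244188-5244437 (minus).
Ptgs1: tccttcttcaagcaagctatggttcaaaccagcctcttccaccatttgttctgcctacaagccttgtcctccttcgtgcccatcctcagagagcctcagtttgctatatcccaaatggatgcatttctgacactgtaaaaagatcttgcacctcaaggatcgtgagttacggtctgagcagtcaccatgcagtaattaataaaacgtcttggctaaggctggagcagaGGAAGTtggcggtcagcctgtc
Ptgs2: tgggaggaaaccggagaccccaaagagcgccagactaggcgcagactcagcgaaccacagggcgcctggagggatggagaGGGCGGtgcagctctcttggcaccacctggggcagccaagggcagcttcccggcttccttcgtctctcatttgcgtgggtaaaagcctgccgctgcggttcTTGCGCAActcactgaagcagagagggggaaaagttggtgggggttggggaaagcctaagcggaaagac
Ptger4: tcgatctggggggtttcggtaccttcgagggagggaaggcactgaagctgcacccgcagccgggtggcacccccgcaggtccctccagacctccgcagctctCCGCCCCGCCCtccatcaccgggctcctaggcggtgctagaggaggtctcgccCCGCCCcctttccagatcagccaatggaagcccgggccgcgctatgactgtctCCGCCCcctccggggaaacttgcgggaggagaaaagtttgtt
In Ptgs1 the capitals are a GGAAGT (Ets motif) that begins 22 bases before the start, a string that 23.8% of the 32851 windows of 300 bases in the table held on either strand. In Ptgs2 they are a GGGCGG (GC box) 170 bases before the start, held by 35.7% of windows, and a TTGCGCAA (C/EBP palindrome) 69 bases before it, held by 0.183%. In Ptger4 they are 4 GC boxes on the opposite strand, the first 2 of them overlapping, 148, 143, 95 and 42 bases before the start. TGACG (20.8% of windows) and CACGTG (7.15%) were found only after the start of Ptgs2 among the 7 members in the table, and TATAAA (13.6%) and AGATAA (11.2%) in none. The motifs were chosen after the sequences had been seen, and a match is a description, not a site.

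The level of a gene in a class is its UMIs summed over the cells of that class in 1 library and scaled to CPM, with an exact Poisson 95% interval. Intervals cover counting error only. Levels were compared between classes for each gene and not between genes, since CPM is not scaled for how well a transcript is captured. Shares of cells with a UMI are also given after each cell was thinned to 2000 UMIs, because B cell-like cells (median 5287 to 6510.0 UMIs per cell) were shallower than, for instance, mesothelial-like cells (26932 to 36832). B cell-like cells served as the background for the 6 synthesis genes. Clusters 23, 24 and 25 had enough cells in 1 library each and are left out of the orders given for each gene. Cluster 23, 71 cells of the library labelled CD45- Tom+ led by Sfrp1, held Ptgs2 at 260.5, Ptges at 47.4 and Ptgis at 42.2 CPM. Cluster 24, 54 cells of the library labelled CD45+ Tom+ led by the endothelial gene Vwf and the adipocyte gene Lep, held Ptgs2 at 474, Ptgs1 at 180.0 and Ptgis at 207 CPM. Cluster 25, 45 cells of the same library led by Igfbp3, held Ptgs2 at 291, Ptgis at 338 and Ptgs1 at 69.3 CPM.

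**Figure D1:**
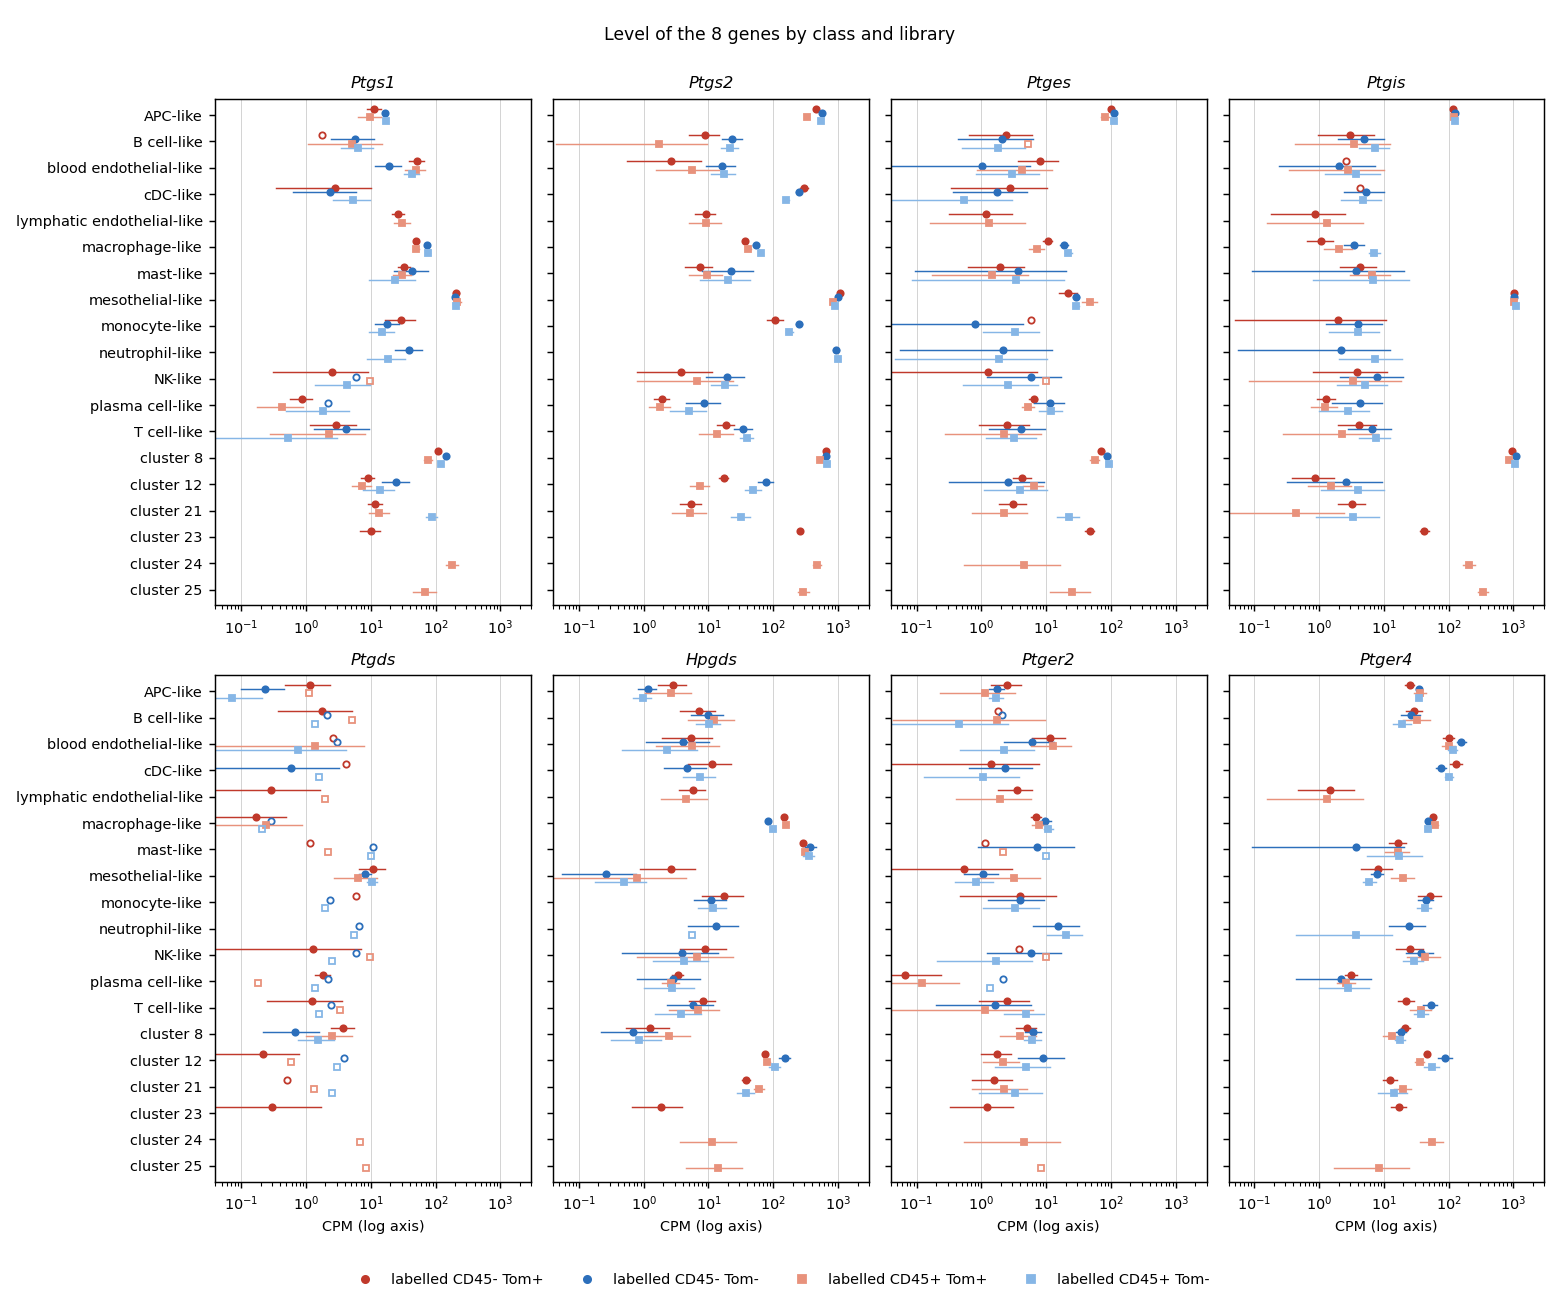
CPM (log axis) of each of the 8 genes in each class or unnamed cluster with at least 30 cells in a library; each symbol is 1 library, lines are exact Poisson 95% intervals, and open symbols stand at the floor of 3 counts where the count was 0. The 4 libraries lie close together for Ptgis and Ptgs1 in mesothelial-like cells (1014 to 1109 and 202 to 216 CPM), and no class with a counted UMI of Ptgds other than these cells passes 10 CPM.

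Ptgs1 encodes the constitutive cyclooxygenase COX-1. It was highest in mesothelial-like cells, at 206, 202, 216 and 209 CPM, where a UMI was found in 90.3 to 95.1% of cells and, after thinning, in 27.5 to 31.4%. The 4 libraries thus differed by less than their counting intervals in this class. Cluster 8, led by Cxcl13 and carrying both mesothelial and progenitor markers, followed at 109, 146, 76.9 and 119 CPM, and macrophage-like cells at 49.4, 74.6, 49.6 and 76.2 CPM. These ranges did not overlap with that of the mesothelial-like cells but nearly met each other. Blood endothelial-like cells held 51, 19.1, 49.1 and 43.5 CPM, overlapping with the macrophage-like range, with mast-like cells at 32.95, 43.9, 30.8 and 23.5 CPM and with lymphatic endothelial-like cells at 26.2 and 30.7 CPM in the 2 Tom+ libraries. Adipocyte progenitor (APC)-like cells were lower, at 11.3, 16.6, 9.70 and 17.1 CPM, and plasma cell-like cells lowest. In B cell-like cells there were 0, 8, 3 and 14 UMIs, the 0 allowing up to 1.78 CPM, and the thinned shares of cells were 0 to 1.44%.

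Ptgs2 encodes the inducible cyclooxygenase COX-2. Neutrophil-like cells, with enough cells in the 2 Tom- libraries only, held 926 and 986 CPM, and mesothelial-like cells 1080.0, 989, 834 and 896 CPM. These 2 ranges overlapped, so no order between them is given. Cluster 8 came next at 659.7, 645, 519 and 668 CPM and overlapped with APC-like cells, which held 450.3, 565, 326 and 554 CPM. Conventional dendritic cell (cDC)-like cells had 296, 248 and 157 CPM and monocyte-like cells 108, 253 and 177 CPM, both without a value in the library labelled CD45+ Tom+. Macrophage-like cells were lower, at 36.5, 53.3, 40.3 and 63.8 CPM. The thinned shares of cells were 58.1 to 65.04% in neutrophil-like, 51.4 to 61.5% in mesothelial-like and 24.8 to 31.5% in APC-like cells, against 0 to 5.77% in B cell-like cells (8.88, 23.2, 1.72 and 21.5 CPM). Both cyclooxygenases were thus highest outside the lymphocytes, but mast-like and lymphatic endothelial-like cells, which had Ptgs1, held Ptgs2 at 7.28 to 21.96 and 9.02 to 9.15 CPM, below the highest B cell-like value of 23.2 CPM.

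Ptgs2 is itself an immediate early gene, and tissue digestion is known to raise such genes. The summed level of 10 dissociation stress genes (Fos, Fosb, Jun, Junb, Egr1, Atf3, Hspa1a, Hspa1b, Dusp1 and Ier2) was 24811 to 27143 CPM in APC-like cells, 25265 to 27788 CPM in mast-like cells and 17275 to 18228 CPM in mesothelial-like cells. Neutrophil-like cells, among the highest for Ptgs2, stood at 8756 and 8926 CPM, and B cell-like cells at 5277 to 7153 CPM. Mast-like cells thus had much stress RNA and little Ptgs2, and neutrophil-like cells less stress RNA and much Ptgs2. APC-like and mesothelial-like cells had much of both, and B cell-like cells little of both. Levels in different cell types cannot tell how much digestion raised Ptgs2 in any of them. The part of digestion in the Ptgs2 levels was not tested.

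**Figure D2:**
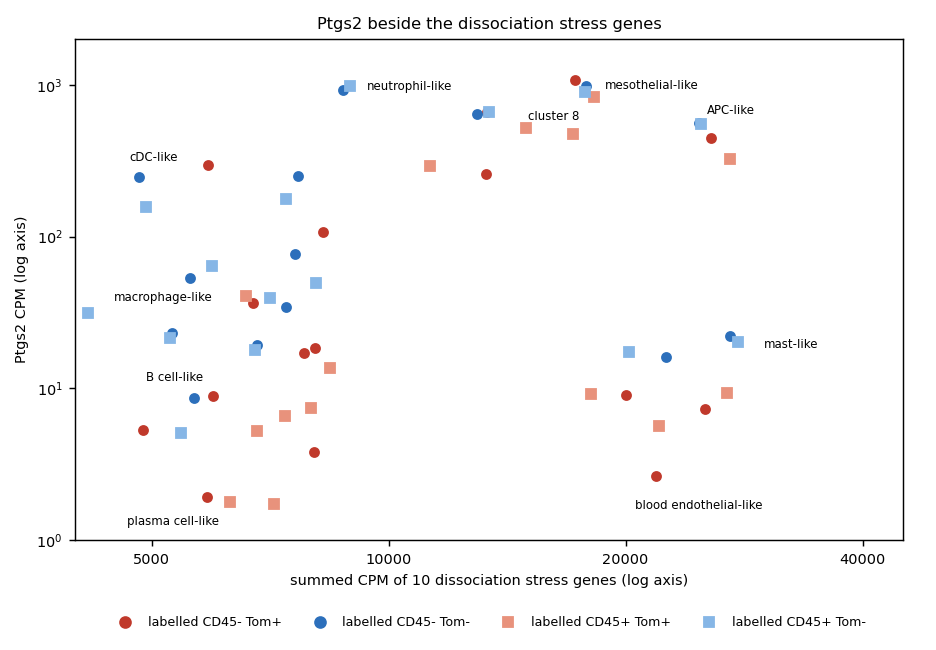
Ptgs2 CPM against the summed CPM of 10 dissociation stress genes (both log axes) for each class or unnamed cluster with at least 30 cells in a library; each symbol is 1 library and selected classes are labelled. Neutrophil-like and mast-like cells lie at opposite corners, with 926 and 986 against 7.28 to 21.96 CPM of Ptgs2.

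Ptges encodes the inducible microsomal prostaglandin E synthase, which makes prostaglandin E2. It was highest in APC-like cells, at 102, 109, 80.9 and 112 CPM, with a UMI in 74.5 to 82.7% of cells (13.2 to 19.6% after thinning, against 0 to 0.667% of B cell-like cells). Cluster 8 held 70.9, 85.9, 56.01 and 92.6 CPM, which overlapped with the APC-like range. Mesothelial-like cells held 21.9, 29.01, 47.6 and 28.7 CPM and macrophage-like cells 10.5, 19.1, 7.08 and 22.04 CPM. The 47.6 CPM of the library labelled CD45+ Tom+ came from 60 UMIs over 35 cells. In cluster 4, the larger mesothelial-like cluster, that library was at 29.9 CPM, from 32 UMIs over 31 cells. Lymphatic endothelial-like cells were lowest.

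Ptgis encodes prostacyclin synthase. Mesothelial-like cells held 1022, 1014, 1033 and 1109 CPM and cluster 8 962, 1080.4, 862 and 1044 CPM, overlapping ranges well above all others. Nearly every mesothelial-like cell had a UMI (99.3 to 100.0%, and 82.2 to 88.6% after thinning, against 0 to 1.33% of B cell-like cells). APC-like cells followed at 118, 123, 122 and 126 CPM, with little spread between the libraries. Blood endothelial-like cells, a class known for prostacyclin, had 0, 2, 2 and 5 UMIs of Ptgis in 80, 110, 42 and 140 cells, the 0 allowing up to 2.64 CPM. At this depth their level (0 to 3.75 CPM) was not above that of B cell-like cells (2.96 to 7.33 CPM). Cluster 24, led by the endothelial gene Vwf and the adipocyte gene Lep, is not part of this class. It held Ptgis at 207 CPM in the library labelled CD45+ Tom+.

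Ptgds and Hpgds encode the prostaglandin D synthases, the lipocalin-type and the haematopoietic one. Ptgds was low in every named class and reached 10.7, 8.13, 6.34 and 10.4 CPM in mesothelial-like cells, against 3 UMIs in all B cell-like cells, all of them in the library labelled CD45- Tom+ (1.78 CPM). Hpgds was highest in mast-like cells, at 286, 373, 314 and 353 CPM and in 76.04 to 85.1% of cells (41.7 to 50% after thinning). Macrophage-like cells had 146, 81.9, 159 and 100.4 CPM, and these ranges did not overlap. Cluster 12, left unnamed because the immunoglobulin gene Ighg2c led it, although all 8 macrophage markers were raised, held 74.99, 150.2, 80.6 and 105 CPM and overlapped with the macrophage-like range. Cluster 21, with haemoglobin and cell cycle genes, held 37.7, 61.01 and 38.1 CPM in the 3 libraries other than CD45- Tom-. B cell-like cells held 7.10, 9.84, 12.04 and 10.1 CPM, with thinned shares of 1.92 to 2.74%, and no other class exceeded 20 CPM. Mesothelial-like cells, the highest for Ptgds, were among the lowest for Hpgds, at 0.262 to 2.67 CPM from 5, 3, 1 and 6 UMIs. That range overlapped with those of cluster 8 (0.675 to 2.48 CPM) and APC-like cells (0.969 to 2.82 CPM).

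The receptors Ptger2 and Ptger4 encode EP2 and EP4, which raise cAMP on binding prostaglandin E2. Ptger2 did not reach 20 CPM, as a mean over libraries, in any class. Its highest values were 15.3 and 20.3 CPM in neutrophil-like cells of the Tom- libraries, from 7 and 11 UMIs. Macrophage-like cells had 6.89, 9.73, 7.80 and 10.8 CPM and blood endothelial-like cells 11.4, 6.02, 12.6 and 2.25 CPM, and these 3 ranges of counts overlapped or were too thin to order. Ptger4 was highest in blood endothelial-like cells, at 100.2, 156, 99.5 and 116 CPM, with cDC-like cells at 129, 76.7 and 100.1 CPM in the 3 libraries other than CD45+ Tom+. Their ranges overlapped. Macrophage-like cells held 57.3, 48.6, 61.8 and 47.4 CPM, monocyte-like cells 50.98, 44.1 and 42.4 CPM and APC-like cells 25.01, 34.5, 36.2 and 34.7 CPM. Lymphocytes had the receptor too: T cell-like cells held 22.2, 52.3, 37.3 and 37.8 CPM and B cell-like cells 29.6, 26.01, 32.7 and 19.2 CPM. The lowest class was lymphatic endothelial-like, with 1.45 and 1.31 CPM in the Tom+ libraries, so the 2 kinds of endothelial cell stood at opposite ends of the order. The thinned shares were 9.52 to 23.9% in blood endothelial-like cells (median 7105 to 14865 UMIs) and 0 to 0.562% in lymphatic endothelial-like cells (median 15688 to 16586).

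Within the APC-like class the 4 best measured synthesis genes were unevenly spread over its 5 clusters. Cluster 5, in which all 4 inflammatory progenitor markers (Ptx3, Il6, Cxcl1 and Ccl2) were raised, held Ptgs2 at 1444, 1339.5 and 1326 CPM in the 3 libraries other than CD45+ Tom+. Clusters 0 and 7 held 147 to 248 and 223 to 394 CPM, and cluster 14, rich in collagen genes, 189.6 to 198 CPM. Cluster 22 was nearest, at 746.5 and 483 CPM in the 2 Tom- libraries. Cluster 5 was thus above every other APC-like cluster in each library that had it. Ptges followed with smaller steps, at 134, 144 and 141 CPM in cluster 5 and 63.7 to 116 CPM in cluster 0. Ptgis and Ptgs1 had another order. Cluster 22, with all 5 interstitial progenitor markers (Dpp4, Pi16, Anxa3, Cd55 and Sema3c) raised, held Ptgis at 309 and 322 CPM and Ptgs1 at 68.4 and 77.04 CPM in the 2 Tom- libraries. Cluster 7, with 4 of 5 committed preadipocyte markers raised, held Ptgis at 27.9, 34.3 and 34.2 CPM and Ptgs1 at 6.84 to 12.02 CPM. In cluster 0, the top 5% of cells held 52.6 to 59.01% of the Ptgs2 UMIs, against 21.5 to 27.5% in cluster 5. The summed stress genes were higher in cluster 0 (31562 to 33496 CPM) than in cluster 5 (21694 to 22208 CPM), the reverse of the order for Ptgs2. Cluster 7 (22859.5 to 24654 CPM) also had more stress RNA and less Ptgs2 than cluster 5. In the 2 Tom- libraries, clusters 14 (17118.5 and 18038 CPM) and 22 (16458 and 16315 CPM) had less of both than cluster 5. The part of digestion in these levels was not tested.

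The 3 macrophage-like clusters divided the prostaglandin genes between them. Cluster 2, led by Arg1 and Chil3, held Ptgs1 at 123, 116, 137 and 118 CPM and Hpgds at 15.6, 9.65, 18.1 and 8.99 CPM. These Hpgds values were above those of B cell-like cells in the Tom+ libraries and close to them in the Tom- libraries. The B cell-like values rest on 12, 14, 7 and 22 UMIs, so no order is given. Cluster 3, led by Gpnmb, had the opposite pattern to cluster 2, with Ptgs1 at 11.3, 11.1, 9.85 and 15.6 CPM and Hpgds at 196, 189, 215 and 228 CPM. Cluster 16, led by Vsig4 and Marco and with all 5 resident macrophage markers raised, held both, Ptgs1 at 100.5, 106, 82.6 and 106 CPM and Hpgds at 131, 65.2, 138 and 63.6 CPM. Ptges was at 27.2 to 38.05 CPM in cluster 2 and 0.772 to 2.10 CPM in cluster 3 and at 9.48, 6.11, 3.15 and 11.2 CPM in cluster 16, so that cluster 16 was farther below cluster 2 for Ptges than for Ptgs1 in each library. Ptger4 was highest in cluster 16, at 107, 120.2, 118 and 86.01 CPM against 36.9 to 50.6 and 52.1 to 54.8 CPM. The ranges of clusters 2 and 3 did not overlap for Ptgs1, Hpgds or Ptges. None of these genes took part in the clustering.

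**Figure D3:**
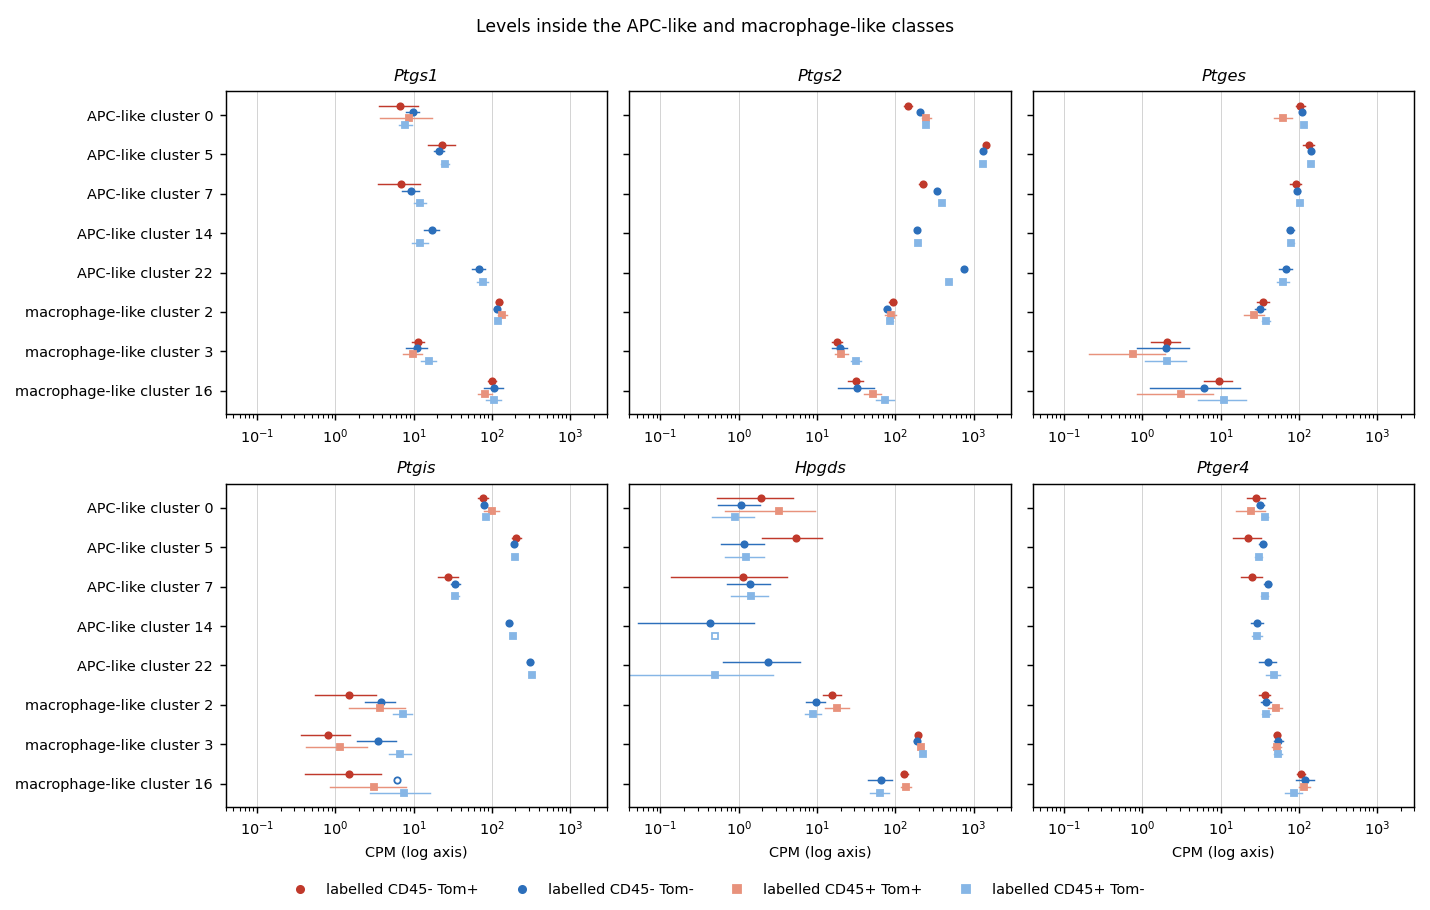
CPM (log axis) of 6 of the genes in the clusters of the APC-like and macrophage-like classes; each symbol is 1 library, lines are exact Poisson 95% intervals, and open symbols stand at the floor of 3 counts. Ptgs1 and Hpgds have opposite orders in macrophage-like clusters 2 and 3, and Ptgs2 is highest in APC-like cluster 5 (1326 to 1444 CPM).

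Pairs of members were looked for in the same thinned cells. In macrophage-like cells 0.190 to 1.36% had UMIs of both Ptgs1 and Hpgds, below the 1.56 to 2.53% that the product of the 2 shares gives in each of the 4 libraries. This class pools cluster 2, with more Ptgs1, and cluster 3, with more Hpgds, so the shortfall does not describe single clusters. In cluster 16, which held both genes, the shares were 2.68, 0, 3.37 and 4% beside products of 4.10, 1.63, 2.79 and 2.80%. In APC-like cluster 5, 13.95 to 14.7% of cells had both Ptgs2 and Ptges, beside a product of 13.5 to 15.4%. In mesothelial-like cells 45.6 to 49.7% had both Ptgs2 and Ptgis, beside 44.1 to 50.6%, and 15.97 to 21.4% had both cyclooxygenases, beside 16.2 to 18.0%. The latter 3 pairs were close to what independent detection gives, and these sparse counts allow no more than that description.

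Across the 19 classes and clusters, on the log2(CPM + 1) scale, Ptges and Ptgis were the most alike members (Pearson r = 0.74), followed by Ptgs2 and Ptgis (r = 0.73), and Hpgds and Ptgds the least alike (r = -0.52). These points share libraries and depth, and no test applies. Of 6679 genes with at least 50 CPM in a class, Ptprd, Wt1 and Bnc2 were most like Ptgis (r = 0.97, 0.96 and 0.96). Cgnl1 was most like Ptgs1 (r = 0.91), Isyna1 most like Ptgs2 (r = 0.84), Olfml3 most like Ptges (r = 0.91) and Galc most like Hpgds (r = 0.90). The nearest gene was Nxph1 for Ptgds (r = 0.95), Gng5 for Ptger2 (r = 0.83) and Plekha1 for Ptger4 (r = 0.76).

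The design compares p16-high with p16-low cells, which here means Tom+ with Tom- within the libraries labelled CD45- and within those labelled CD45+. The 2 pairs share no library. A log2 ratio (Tom+ over Tom-) was taken in each class with at least 30 cells in both libraries for genes whose mean over both libraries was 5 CPM or more, with a conditional exact 95% interval, and a ratio of 2-fold or more counts as past the fold. All 8 members passed this filter in at least 1 class. In the CD45- pair, 4 of 56 member-by-class values over 13 classes and clusters were higher past the fold and 12 lower, where 3.62% and 6.95% of all gene-by-class values were. In the CD45+ pair, 2 of 54 values over 12 classes and clusters were higher and 12 lower, where 3.8% and 7.57% of all were. Of the 30 values past the fold, 14 concerned Ptgs2, and all 14 were lower in Tom+.

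Among the classes and the clusters outside them, Ptgs2 was the only member past the fold in the same direction in both pairs, in 5 of them. Of the clusters within classes, Hpgds in macrophage-like cluster 16 and Ptgs2 in T cell-like cluster 11 were so too. In T cell-like cluster 11, Ptgs2 rested on 7, 26, 2 and 24 UMIs. Its ratios there were -1.36 (-2.81 to -0.12) and -1.18 (-4.31 to 0.83), the latter interval including 0. Of all genes there, 10.6% were lower past the fold in the CD45- pair and 15.3% in the CD45+ pair. In cluster 12 Ptgs2 was at 17.1, 76.4, 7.36 and 49.5 CPM and the log2 ratios were -2.16 (-2.60 to -1.71) and -2.75 (-3.40 to -2.11), but 14.5% of all genes were lower past the fold in both pairs there. In blood endothelial-like cells it was at 2.64, 16.1, 5.61 and 17.2 CPM, from 3, 16, 4 and 23 UMIs, and the ratios were -2.61 (-5.03 to -0.80) and -1.62 (-3.61 to -0.07), beside 0.68% of all genes. The levels are close to the background in B cell-like cells, and both ratios turned positive under a looser cell filter, at 4.57 and 3.83, which added cells of cluster 24 and cells outside the limits used here to this class. In B cell-like cells, which held 15, 33, 1 and 47 UMIs, the ratios were -1.39 (-2.37 to -0.46) and -3.64 (-8.98 to -1.10), beside 1.27% of all genes. NK-like cells (3, 10, 2 and 21 UMIs) had -2.34 (-4.84 to -0.39) and -1.44 (-4.57 to 0.60), beside 2.39%, and mast-like cells (19, 6, 13 and 6 UMIs) -1.59 (-2.97 to 0.02) and -1.11 (-2.61 to 0.57), beside 1.55%. Intervals of NK-like cells in the CD45+ pair and of mast-like cells in both pairs included 0.

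In these 5 Ptgs2 was below its level over all cells of the same library, which was 125, 505, 104 and 454 CPM. Cluster 12 was the highest of them in the Tom- libraries, at 76.4 and 49.5 CPM. Markers of other cell types moved with Ptgs2. The summed 8 APC markers were at 456, 817, 380 and 774 CPM in B cell-like cells, at 184, 680, 181 and 502 CPM in NK-like cells, at 635, 952, 566 and 1110 CPM in mast-like cells and at 195, 326, 219 and 371 CPM in cluster 12. In each they were lower in Tom+ in both pairs, as Ptgs2 was, and in B cell-like cells 5, 6, 4 and 6 of the 8 genes reached 20 CPM. In blood endothelial-like cells they went the other way, at 1911, 1382, 2332 and 1381 CPM. Of the 6 mesothelial markers, B cell-like cells held 4.14, 25.3, 6.88 and 17.9 CPM in sum, with Msln at 0 in both Tom+ libraries. The part of RNA from other cells in these ratios was not tested.

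In the classes with most Ptgs2 the ratios were small. Mesothelial-like cells had 0.13 (0.06 to 0.20) and -0.10 (-0.20 to -0.01), cluster 8 0.03 (-0.03 to 0.09) and -0.36 (-0.45 to -0.28), and APC-like cells -0.33 (-0.39 to -0.27) and -0.76 (-0.86 to -0.67). APC-like cluster 5 made up 16.3, 24.7, 18.9 and 22% of the APC-like cells, and within it the CD45- ratio was 0.11 (0.03 to 0.18). Within cluster 0 the ratios were -0.48 (-0.65 to -0.31) and 0.01 (-0.19 to 0.21), and within cluster 7 -0.62 (-0.78 to -0.47) in the CD45- pair. The direction in APC-like cells therefore differed between its clusters. Monocyte-like cells, in the CD45- pair only, were at -1.23 (-1.67 to -0.81).

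Ptgis hardly differed between Tom+ and Tom- where it was high, with 0.01 (-0.06 to 0.08) and -0.10 (-0.19 to -0.02) in mesothelial-like, -0.17 (-0.22 to -0.12) and -0.27 (-0.34 to -0.21) in cluster 8 and -0.07 (-0.18 to 0.05) and -0.04 (-0.21 to 0.12) in APC-like cells. These intervals lie well within 2-fold, but they cover counting error only and no spread between animals, sorts or libraries. Ptgs1 was close to 0 in mesothelial-like cells (0.03 (-0.13 to 0.19) and 0.05 (-0.13 to 0.23)) and past the fold in blood endothelial-like cells of the CD45- pair (1.42 (0.65 to 2.25)), but not of the CD45+ pair (0.17 (-0.47 to 0.80)). Ptges in APC-like cells was at -0.11 (-0.23 to 0.02) and -0.47 (-0.67 to -0.27). For Ptger4, T cell-like cells of the CD45- pair were at -1.24 (-1.79 to -0.70) and those of the CD45+ pair at -0.02 (-0.66 to 0.60). In mesothelial-like cells Ptger4 was past the fold in the CD45+ pair (1.73 (1.02 to 2.41)), from 25 UMIs in 35 cells, and not in the CD45- pair (0.04 (-0.86 to 0.84)). Whether the 2 pairs differ was not tested, since each is a single pair of libraries.

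**Figure D4:**
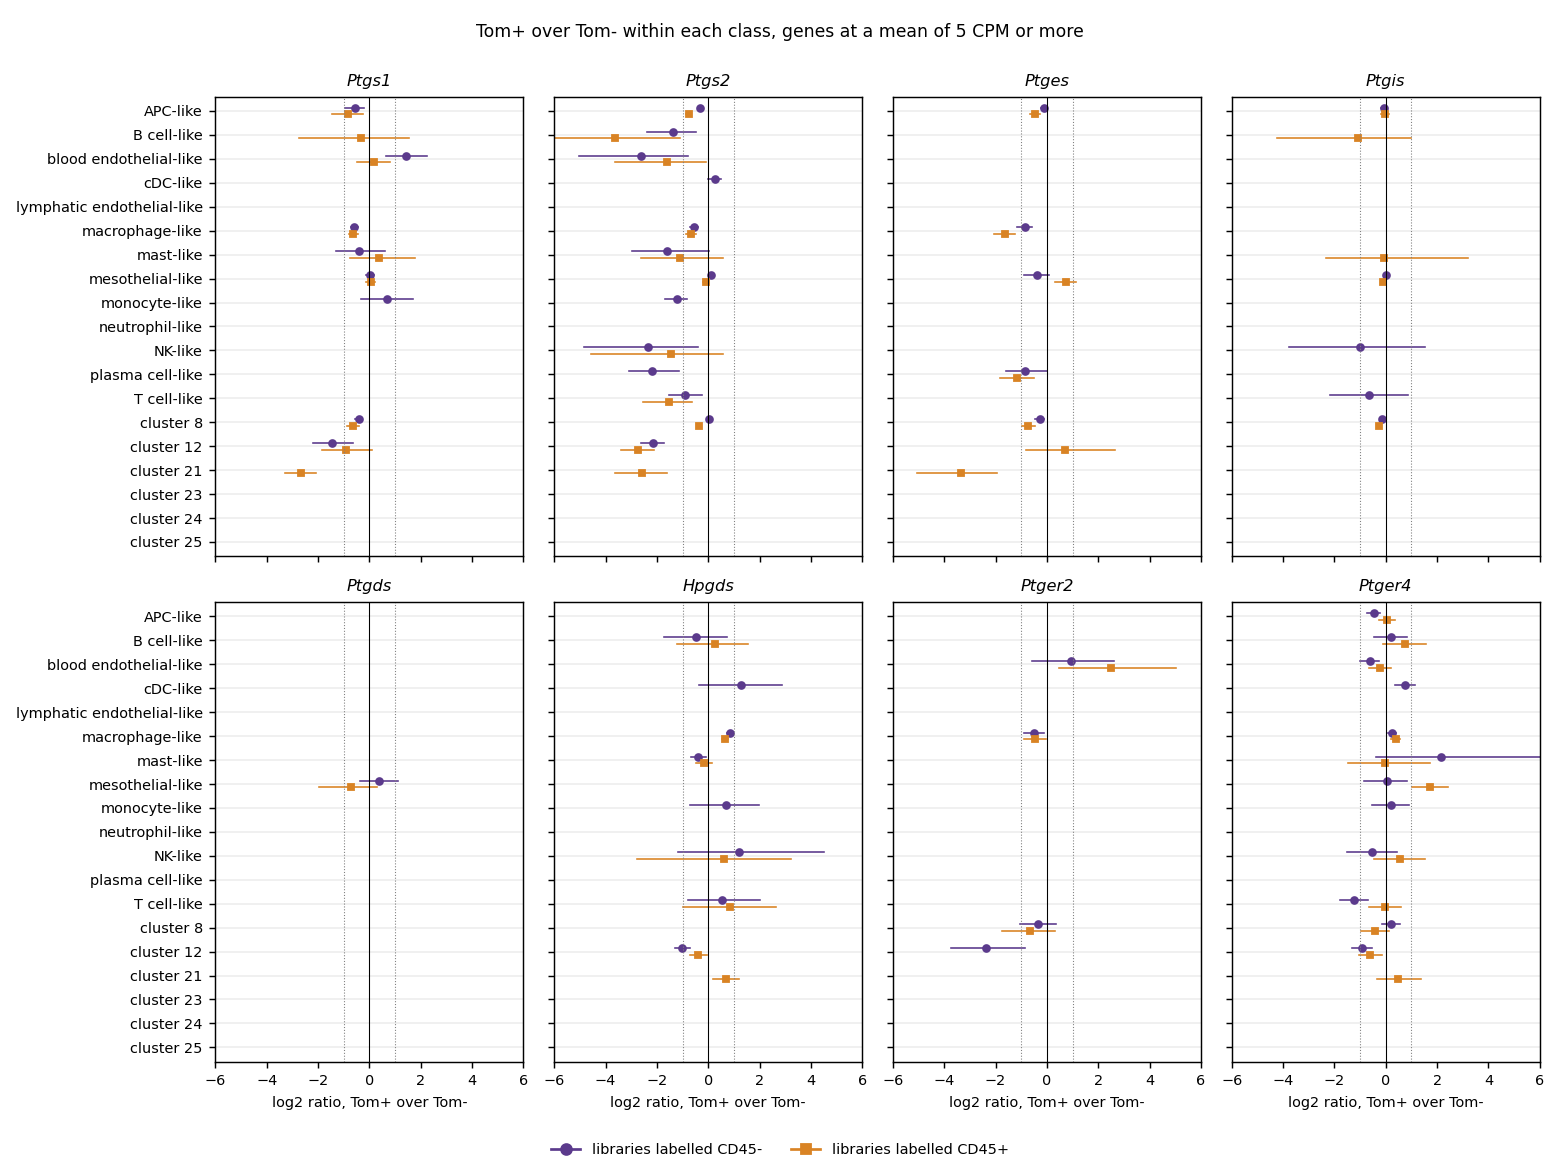
Log2 ratio of Tom+ over Tom- for each member in each class or unnamed cluster, for genes at a mean of 5 CPM or more, with conditional exact 95% intervals; circles are the libraries labelled CD45- and squares those labelled CD45+, dotted lines mark 2-fold, and rows without a symbol had too few cells or too low a level. Intervals that reach the frame go beyond it. Ptgs2 is lower in Tom+ in both pairs in 8 of the 10 classes that have both, and past 2-fold in 5.

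In macrophage-like cells Hpgds was higher in Tom+, at 0.84 (0.73 to 0.95) and 0.66 (0.55 to 0.77), and Ptgs1 lower, at -0.59 (-0.74 to -0.45) and -0.62 (-0.79 to -0.45). The Tom+ and Tom- libraries drew this class from different clusters. The Gpnmb cluster 3 made up 54.3, 31.4, 50.0 and 32.6% of it, the Arg1 cluster 2 made up 25.4, 61.9, 26.3 and 60.1%, and the Vsig4 cluster 16 made up 20.3, 6.63, 23.7 and 7.33%. With the 3 clusters weighted by 1 common mix, the ratios became 0.16 and 0.05 for Hpgds, 0.06 and 0.04 for Ptgs1, 0.14 and -0.21 for Ptgs2, 0.15 and -0.59 for Ptges and -0.08 and 0.19 for Ptger4. Within cluster 3, where Hpgds was highest, its ratios were 0.05 (-0.07 to 0.18) and -0.09 (-0.20 to 0.03). In cluster 2, where Hpgds was low (62, 56, 34 and 69 UMIs), they were 0.69 (0.15 to 1.24) and 1.01 (0.37 to 1.62). The latter was past the fold, where 1.47% of all genes were higher. In cluster 16 they were 1.01 (0.48 to 1.58) and 1.11 (0.66 to 1.59), past the fold in both pairs, where 0.977% of all genes were. Hpgds UMIs in that cluster numbered 345, 32, 175 and 51. In mast-like cells the ratios were -0.39 (-0.69 to -0.07) and -0.17 (-0.48 to 0.15).

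Over all cells of a library the differences were larger than within most classes. Hpgds was at 47.1, 16, 51.8 and 19.8 CPM, Ptgis at 96.7, 322, 92.5 and 291 CPM and Ptges at 18.2, 67.2, 14.8 and 67.3 CPM. The library-wide log2 ratios in the CD45- and CD45+ pairs were -2.01 and -2.12 for Ptgs2, -1.88 and -2.19 for Ptges, -1.73 and -1.65 for Ptgis, -1.25 and -1.17 for Ptgs1 and 1.56 and 1.38 for Hpgds. With the 11 classes and clusters present in all 4 libraries weighted by 1 mix, which cover 84.3 to 94.6% of the UMIs, they became -0.15 and -0.50, -0.22 and -0.49, -0.08 and -0.17, -0.29 and -0.33, and 0.26 and 0.36. Ptger2 moved little, from -0.48 in both pairs to -0.44 and -0.35, and Ptger4 went from -0.42 and -0.35 to -0.23 and 0.14. The library-wide differences of these 5 synthesis genes were thus much smaller at 1 mix of classes. Ptgds, at 0.57 and -0.56 library-wide, went to 1.27 and -0.38, where all cells held 204, 107, 50 and 142 UMIs. Of the 204, 83 were in cluster 26, which is outside the mix. Another 56 were in 7 of the 827 plasma cell-like cells. The sort can set that mix, and shares of classes are not read as shares in the tissue.

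**Figure D5:**
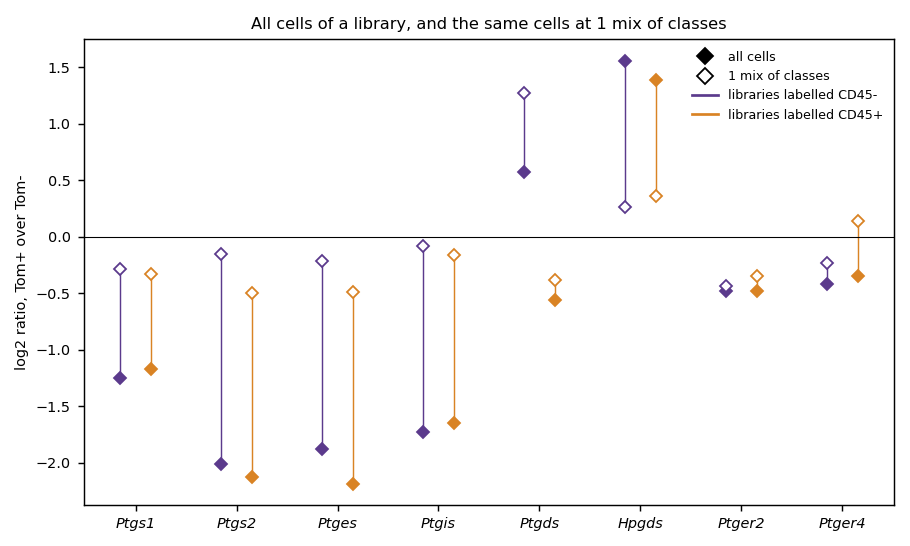
Log2 ratio of Tom+ over Tom- for each member over all kept cells of a library (filled) and with the classes weighted by 1 mix (open), for the libraries labelled CD45- and CD45+. The open symbols of Ptgs1, Ptgs2, Ptges, Ptgis and Hpgds lie closer to 0 than the filled ones in both pairs, whereas Ptgds in the CD45- pair lies farther from 0.

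Of 23 other genes of the prostanoid pathway, 13 reached 20 CPM in at least 1 class. Upstream of the cyclooxygenases, Pla2g4a, the cytosolic phospholipase that releases arachidonic acid, was highest in mesothelial-like cells (77.7 to 93.3 CPM), the class with the most Ptgs1. Tbxas1, thromboxane synthase, was highest in macrophage-like cells (212 to 236 CPM). Hpgd, the dehydrogenase that inactivates prostaglandins, led in APC-like cells (95.4 to 116 CPM), and Slco2a1, the prostaglandin transporter, was at 271 CPM in mesothelial-like cells as a mean of 4 libraries and at 770.5 CPM in cluster 24 of the library labelled CD45+ Tom+. Of the other E receptors, Ptger1 did not pass 6.58 CPM in NK-like cells, its highest class, and Ptger3 led in mesothelial-like cells (73.6 to 78.6 CPM) and the prostacyclin receptor Ptgir in APC-like cells (21.7 to 24.2 CPM). The D receptors were at or near 0, with no UMI of Ptgdr in any class described (up to 0.0709 CPM is allowed in APC-like cells of the library labelled CD45+ Tom-) and Ptgdr2 at up to 1.66 CPM. For the 17 of the 23 genes that passed the filter in a class of each pair, 2 of 136 values were higher and 9 lower past the fold in the CD45- pair, and 3 of 119 higher and 15 lower in the CD45+ pair. These shares can be read against the same percentages of all genes as those of the members.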

How the data were processed

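The authors aligned reads to mm10 and counted UMIs with Cell Ranger 3.0.2 and deposited, per library, whole-number counts per gene and barcode without normalization, 64083756 to 139397501 UMIs in all. The reference held a tdTomato row. The study's own limits on barcodes were applied here (more than 1000 but fewer than 7000 genes, mitochondrial UMIs below 8%). Doublets were scored per library with Scrublet in scanpy 1.11.5, and the highest scores, 0.8% of cells per 1000 barcodes (54 to 427 cells), were left out. Cells were clustered together by the Leiden algorithm (leidenalg 0.10.2, 2000 variable genes, 30 components, 15 neighbours, resolution 1, no integration), without the pathway, stress and tdTomato genes. No column of other samples was present. Positions are from GENCODE for mm10 (30934 of 31054 features matched) and sequences from RefSeq.

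UMIs were summed per class and library with at least 30 cells as CPM with exact Poisson intervals, shares carry Clopper-Pearson intervals, and log2 ratios the conditional exact interval (scipy 1.17.1), all at 95%. A count of 0 is given with a limit of 3 counts. The study's Wilcoxon test over cells was not used, since cells of 1 library are not replicates. Thinning left out 13, 22, 0 and 27 cells. On counts simulated for 9860 genes of APC-like cells of the CD45- pair, all 200 changed genes passed 2-fold and 95.9% of intervals held the true ratio. These counts were drawn from the Poisson model that the intervals assume, and the changes were set beyond 2-fold. The outcome was thus largely fixed in advance. It checks the calculation only, not how well the intervals hold for real UMIs. Named genes were the 8 members, 23 other pathway genes, 10 stress genes, the 3 genes most like each member (at least 50 CPM, immunoglobulin genes and tdTomato left out), cell type markers and label checks; leading genes of clusters were named after their values were seen. Members, lists and tests were chosen with earlier results of these data known. Alternatives were the cell filter, doublets, resolution, number of variable genes, shared barcodes, weight of cells, thinning, the low-level filter and the fold.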

Additional observations from a re-analysis of the deposited data

Results flagged for a closer look

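For 3 member-by-class values the Tom+ over Tom- log2 ratio had opposite signs in the libraries labelled CD45- and CD45+, with counting intervals that did not meet. Ptgs2 in cluster 8 was at 0.032 and -0.36, and Ptgs2 in mesothelial-like cells at 0.13 and -0.10. In the larger mesothelial-like cluster 4 alone the Ptgs2 ratios were 0.16 and 0.09, so the signs differ only once the 18 cells of the cycling cluster 28 are included. Ptges in mesothelial-like cells was at -0.41 and 0.73, and in cluster 4 alone at -0.44 and 0.08. Whether the pairs differ was not tested, since each is a single pair of libraries.

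Cluster 26 had under 30 cells in every library and entered no comparison. Its 28 cells (16 of the library labelled CD45- Tom+ and 12 of that labelled CD45+ Tom+) were led by Gpx5, Defb20 and Spag11b, genes known from the epididymis, which lies beside this fat depot. They held Ptgds at 111 CPM (95% interval 91.7 to 133), 115 UMIs in 22 cells, above every class described. They also held 83 of the 204 and 32 of the 50 Ptgds UMIs of these 2 libraries. Hpgds was at 30.9 CPM there, and Ptgs1, Ptges and Ptger2 had no UMI, which allows up to 2.90 CPM.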

How the results depend on the processing

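The highest class remained the same for all 8 members with equal weight per cell and after thinning. Mesothelial-like cells overtook neutrophil-like cells for Ptgs2 with doublets kept, at resolution 2 and with 4000 variable genes. Cluster 8 overtook mesothelial-like cells for Ptgis at resolution 2, with 4000 variable genes and without shared barcodes. Under the looser cell filter (500 genes, 20% mitochondrial UMIs) cDC-like cells led for Ptger4 and cluster 26 for Ptgds. The share of cells in the highest class was above that of B cell-like cells in every library for 5 of the 6 synthesis genes (all but Ptgds), and for 5 or 6 under the alternatives. The class was picked for its highest CPM, so this outcome was largely fixed in advance. Except under the thinning alternative, these shares were not thinned, and B cell-like cells were shallower.

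Of values past the fold, 4 were higher and 12 lower in the CD45- pair, and 2 and 12 in the CD45+ pair. Those higher in the CD45- pair numbered 11 under the looser cell filter, 7 with doublets kept, 7 after thinning, 18 with no filter on low values and 10 at a log2 ratio of 0.5, and those lower 7 with 4000 variable genes, 6 without shared barcodes, 24 with no low filter and 22 at 0.5. In the CD45+ pair the higher ones numbered 8, 0 with doublets kept, 5 with equal weight per cell, 18 after thinning, 10 with no low filter and 10 at 0.5, the first under the looser filter, and the lower ones 27 with no low filter and 22 at 0.5.

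The direction turned in 5 of 702 recomputed log2 ratios. Ptgs2 in blood endothelial-like cells came to 4.57 and 3.83 under the looser filter. There 17 and 16 cells of cluster 24 with 674 and 200 Ptgs2 UMIs joined the Tom+ side, as did 38 and 17 newly kept cells with 25 and 85. The ratios were 0.17 and 2.55 without cluster 24, 4.79 and 3.40 without newly kept cells, and -2.65 and -1.73 without both, a breakdown chosen after seeing the data. Ptgs2 in mast-like cells of the CD45+ pair came to 0.11 with doublets kept and 0.086 with equal weight per cell, and Hpgds in cluster 12 of the CD45- pair to 0.62 after thinning. The cause of the last 3 was not tested. For Ptgs2 in B cell-like cells all recomputed ratios stayed past the fold, between -2.36 and -1.38 in the CD45- pair and between -3.62 and -2.85 in the CD45+ pair. Those in cluster 12 did too, while NK-like cells came to as little as -0.23 and -0.76 (past the fold under 5 of 7 and 3 of 5 alternatives) and mast-like cells of the CD45- pair to -0.65 (6 of 7). Of the 30 member values past the fold, 17 (thinned) to 28 (resolution 2) remained so on the same side, of 23 to 29 that had a value.

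No paired analysis was possible because each group is 1 library, and leaving out a library leaves no comparison. Depth limits Ptgds and Ptger2 everywhere, and every synthesis gene in lymphocytes, where ratios rest on few UMIs. Agreement of the 2 pairs is no replicate, and whether they share animals is not given in the sources used here.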
